A study of Mus musculus with 12 samples.

Results

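The cytosolic ribosome is built of ribosomal RNA and a large and a small set of ribosomal proteins, and the genes of these proteins were followed here at the RNA level in MC38CEA, a line of mouse colon adenocarcinoma that carries human carcinoembryonic antigen (CEA). Members were the genes whose symbol follows the pattern for cytosolic ribosomal proteins (Rpl or Rps with a number and an optional a, x or l, the stalk genes Rplp0 to Rplp2, and Rpsa) and whose mean over all libraries was at least 10 CPM, the counts of a gene scaled to the library's effective size, which is its total times the TMM factor of edgeR. Of 43269 genes 81 had such a name, and 76 of them reached that level, 45 of the large and 31 of the small subunit. All 76 passed the filter on low counts, which left 14673 genes.

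The cells had been electroporated with Cas9 mRNA and then with in vitro transcribed guide RNAs, 2 against Adam17 for Adam17-knockdown (Adam17-KD) cells or a guide against EGFP for control cells, and each edited population was used whole, without picking clones. The 4 groups were Adam17-KD cells without stimulation, control cells without stimulation, Adam17-KD cells given human IL1β and mouse IFNγ at 10 ng/ml each for 6 h, and control cells given the same cytokines, with 3 replicates each and 12 libraries of poly(A)+ RNA in all. Both kinds of cells had therefore gone through electroporation with Cas9 and a guide. Nothing states whether replicates are separate edits, so that p-values measure the spread between these samples only.

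As background, ribosomal protein mRNAs are short, abundant and long-lived, and their products are assembled with ribosomal RNA in the nucleolus. Most begin with a C followed by a run of pyrimidines, the 5′ terminal oligopyrimidine (TOP) tract, through which mTORC1 and the protein LARP1 set their translation and stability. Their genes are house-keeping genes without tissue restriction, and growth factors and MYC raise their output together with that of the ribosomal RNA genes.

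The stretches around the annotated start are shown for 12 members that the values below turn on, to set those with a pyrimidine run across the start beside those without, with 18 bases before the start and 12 from the start on, 5′ to 3′, in RefSeq sequence of GRCm38.p6. Capitals mark the longest unbroken run of C and T.
Rps6: gttaagcggaagtcgggCCTCTTTTTCgtg
Rplp2: cactgcgtcagcgTCTTCCTTTCgccgccg
Rps18: ttatacgtcacttccgCTCTCTCTTCCaca
Rpl35: agtcggccccgCCCTTTCCTCTTTCTCTCg
Rpl14: gcagggcgggCCCTCTCTCTTCTCgctgag
Rpl12: gtgggcggagcaggatccgTCTTTTCggct
Rps2: cgtaggcagtcgagatctcgcgCTTCTTgg
Rps16: aagcccgCTTCTgtcgtgacgtagcactca
Rpl41: cgacacacgggccggCTCggaagtgacgac
Rps21: acttaccgaggacccgCCCTCCTgcccaat
Rps25: CTTTTTTTCCgacatcttagcgaggctgct
Rps27l: tctccaCTCCTCCCCgccgcctctatcccg
These lie at chr4:86857356-86857385 on the minus strand, chr7:141447633-141447662 on the plus strand, chr17:33955654-33955683 and chr2:39005120-39005149 on the minus strand, chr9:120571499-120571528, chr2:32961694-32961723, chr17:24720045-24720074 and chr7:28350671-28350700 on the plus strand, chr10:128549157-128549186 on the minus strand, and chr2:180257361-180257390, chr9:44407696-44407725 and chr9:66946068-66946097 on the plus strand. In Rps6, Rplp2, Rps18, Rpl35 and Rpl14 a run of 10 to 18 C and T lay across the annotated start, and in Rps21 a run of 7. In Rps16, Rps25 and Rps27l the longest run ended before it, in Rpl12 and Rps2 it began after it, and in Rpl41 it had 3 bases. The RefSeq start of Rps2 lay 1947 bases from the start of the gene in GENCODE. This distance was 575 bases in Rps25, 493 in Rpl35, 336 in Rps18, 281 in Rplp2, 153 in Rpl12 and 137 in Rpl41. It was at most 73 bases in the others. The places of the runs given here hold for the RefSeq start only.

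Promoter windows of 300 bases, 250 before and 50 after the start, were given for 56 of the 76 members, in 67 windows. A run of at least 8 C or T within 25 bases on either side of the start was found in 31 of these 56 members (55.4%), against 22.3% of all 27025 genes with a window, and the median longest run was 9 bases against 5. CTTTC on the sense strand of the same 50 bases was found in 18 members (32.1%), against 7.87% of all genes, and such matches can be part of a C and T run. CGGAAG on either strand of the 300 bases, which holds the GGAA core read by ETS factors such as GABP, was found in 39 members (69.6%), against 18.8% of all genes, and its reverse complement can overlap a C and T run. AAGATGG on either strand, the core read by YY1, was found in 9 members (16.1%), against 7.28%, and TATAAA on the sense strand near the start in 3 members (5.36%), against 1.04%. These matches describe letters in these windows and were not tested for a part in the levels below.

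The libraries held 13156871 to 25443307 counts. Adam17 was at 49.7, 57.3 and 49.7 CPM in unstimulated Adam17-KD cells and 57.1, 59.8 and 62.4 CPM in stimulated Adam17-KD cells, against 77.0, 91.8 and 94.4 CPM in unstimulated and 93.8, 111 and 110.3 CPM in stimulated controls, so that every library followed its label. The 10 epithelial markers summed to at most 1.69 CPM per library, so that Epcam, Cdh1, Krt8, Krt18, Krt19 and Krt20, which define the labelled epithelial origin, were at or near 0. The 8 fibroblast and endothelial markers, mostly Col1a2, summed to 278 to 327 CPM in unstimulated Adam17-KD cells, 182 to 191 CPM in unstimulated controls, 134 to 197 CPM in stimulated Adam17-KD cells and 101 to 113 CPM in stimulated controls, with Lum, Pecam1 and Cdh5 near 0. The 6 leukocyte markers summed to at most 7.21 CPM, with Cd3e at 0. The part of the fibroblast markers, whose sum was higher in each Adam17-KD library than in the controls of the same condition, in the values below was not tested.

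Libraries differed within groups, and this touches most values below. Over the tested genes other than the members, control IL1b+IFNg replicate 2 had the lowest mean correlation with its own group (r = 0.967, against 0.978 to 0.989 in the other 11 libraries), and its closest library was Adam17-KD IL1b+IFNg replicate 3, from the other kind of cells. A closest library from the other kind of cells was not particular to this pair. Replicates 3 of unstimulated Adam17-KD and control cells were closest to each other (r = 0.992). Adam17-KD IL1b+IFNg replicate 1 was closest to control IL1b+IFNg replicate 1 (r = 0.988). This correlation is across genes, which are not independent replicates. Values with both control IL1b+IFNg replicate 2 and Adam17-KD IL1b+IFNg replicate 3 left out are given with each comparison. Leaving out both of these stimulated libraries was an alternative chosen after seeing the data.

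The 76 genes together took 4.98%, 6.46% and 7.36% of all counts in unstimulated Adam17-KD cells, against 7.12%, 6.93% and 8.02% in unstimulated controls. In stimulated cells they took 6.74%, 6.80% and 6.05% in Adam17-KD cells, against 7.52%, 5.72% and 7.71% in controls. Unstimulated Adam17-KD replicate 1 and stimulated control replicate 2 had the lowest shares, and the ranges of Adam17-KD and control cells overlapped in both conditions. The Wilson 95% interval of the lowest share ran from 4.97% to 4.99% and covers counting error only, so that replicates differed by far more than counting error. In bulk RNA fewer cells with these transcripts and less of them per cell cannot be told apart.

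CPM compare a gene between libraries, whereas levels of different genes were compared per length. Per kb of coding sequence Rps2, a small subunit protein at the mRNA entrance, was the highest member with 8414 CPM per kb over the 12 libraries, and Rplp0 and Rplp1, which belong to the stalk that recruits elongation factors, were the third and the fourth with 6211 and 5280 CPM per kb. Per kb of transcript Rps2, Rplp0 and Rplp1 were the first 3. Rpl41, a peptide with a coding sequence of 75 bases in a transcript of 582 bases, was second with 7879.9 CPM per kb of coding sequence and 25th per kb of transcript, so that its place depends on the length used. Rps14, Rps18, Rpsa and Rps15 came next, at 3251 to 4479 CPM per kb of coding sequence. In CPM, with no correction for length, the 6 highest members were Rps2, Rplp0, Rpsa, Rpl8, Rps14 and Rpl4, with means over the 12 libraries of 7396, 5906, 3079, 2213, 2029 and 1866 CPM. The lowest members were Rpl37a with 237 CPM per kb, Rps28 with 272 CPM per kb and Rpl36a with 288 CPM per kb of coding sequence.

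**Figure D1:**
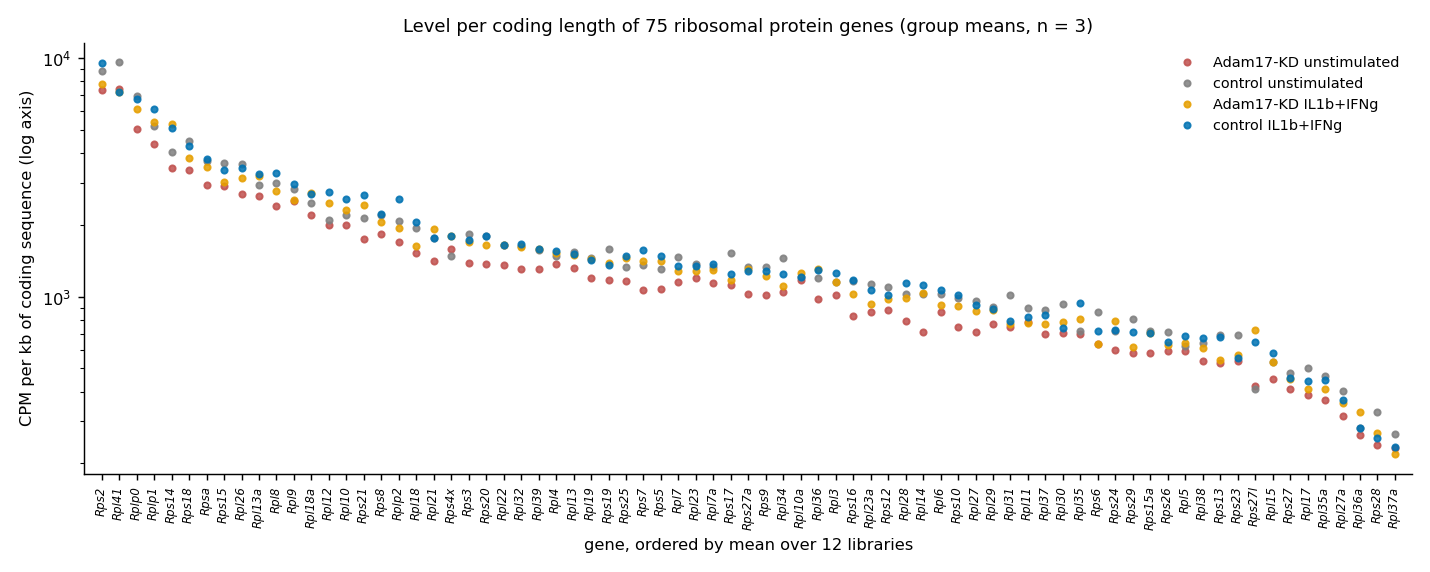
Level of 75 of the 76 genes in CPM per kb of coding sequence on a log axis, as group means (n = 3), with genes ordered by their mean over the 12 libraries. Rps2 stands at the upper end with 8414 CPM per kb and Rpl37a at the lower end with 237 CPM per kb, and the means of the 4 groups for a gene lie closer together than these ends of the range.

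Ribosomal protein genes have many processed pseudogenes, and the handling of reads that map to several places is not given in the sources used here. Among the counted features 249 carried the name of a member with a pseudogene number, for 56 of the 76 members, and 97 of them had a mean of at least 10 CPM. All 249 together summed to 5768 CPM in the mean, or 5.53% to 11.1% of the members' counts per library. Rps16-ps2 stood at 307 CPM, which is 66.8% of Rps16, Rpl38-ps2 at 59.7% of Rpl38, Rps6-ps4 at 33.3% of Rps6, and Rpl10a-ps1 at 27.2% of Rpl10a. Over the 12 libraries the pseudogenes of at least 10 CPM had a median correlation of 0.78 with their parent on the log2 scale, and 94 of 97 were above 0. Of the 188 pseudogenes tested 0 were called in any comparison by edgeR, while 0% to 7.9% of all genes were called, by comparison. The values of members with such copies are uncertain as those of single genes, and the part of shared reads in the levels was not tested.

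Just outside the level rule stood Rpl24 with 3.17 CPM, a protein of the large subunit, and the next genes below it were Rps4l, Rpl3l, Rpl39l and Rpl10l with 15, 16, 8 and 3 counts in all libraries together. The part of the annotation or of shared reads in the low value of Rpl24 was not tested. Just inside stood Rps28 with 56.3 CPM, Rpl37a with 65.5 CPM and Rpl36a with 91.7 CPM. Rpl3l and Rpl39l are copies with a restricted expression in muscle and testis, and their main copies Rpl3 and Rpl39 had 317980 and 52932 counts.

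The comparison of Adam17-KD with control cells without cytokines asks whether the reduction of Adam17 by editing went with other levels of these genes at rest. No member was called at an edgeR quasi-likelihood adjusted p under 0.05, while 0.47% of all 14673 genes were called (69 genes, and 130 genes with the replicate number as a block). At an unadjusted p under 0.05 there were 10 members, all lower in Adam17-KD cells, while 7.56% of all genes passed it, 461 of them lower and 648 higher. DESeq2 also called 0 members. Of the 76 genes 74 had a negative log2 fold change, against 52.3% of all tested genes, and the median was -0.31, a level 0.81 times that of control cells, against -0.01 over all genes. The large subunit had a median of -0.28 with 45 of 45 genes negative, and the small subunit of -0.35 with 29 of 31 genes negative. In 20 members all 3 Adam17-KD libraries lay below all 3 control libraries, while 7.53% of all genes had this pattern, and in 0 members they lay above, while 8.38% of all genes did.

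Rpl30, a large subunit protein that in yeast represses the splicing of its own transcript, had the smallest p of this comparison. It was at 241, 223 and 262 CPM in Adam17-KD cells, against 335, 309.8 and 323 CPM in control cells (log2 fold change -0.41 ± 0.13 (SE), edgeR adjusted p = 0.29). Its 3 Adam17-KD libraries lay below the 3 controls. Rps29, a small zinc-binding protein of the small subunit, was at 94.0, 85.5 and 113 CPM, against 135, 121 and 149 CPM in control cells (log2 fold change -0.47 ± 0.17 (SE), edgeR adjusted p = 0.45), again without overlap. Rps16, which reaches the decoding site with its tail, was at 310.0, 326 and 457 CPM, against 497, 503 and 524 CPM in control cells (log2 fold change -0.48 ± 0.30 (SE), edgeR adjusted p = 0.77), and its controls lay within a narrow range. Rpl14 had the lowest log2 fold change of all members. It was at 531, 364 and 489 CPM in Adam17-KD cells, against 858, 625 and 524 CPM in control cells (log2 fold change -0.54 ± 0.41 (SE), edgeR adjusted p = 0.83), and its groups overlapped, with control replicate 3 just below Adam17-KD replicate 1.

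Rps4x, the X-linked small subunit protein, was the highest member at 1088, 1393 and 1266 CPM in Adam17-KD cells, against 1249, 1026 and 1236 CPM in control cells (log2 fold change 0.09 ± 0.14 (SE), edgeR adjusted p = 0.92). Rps27l, a paralog of Rps27 and a target of p53, had 136, 96.1 and 87.3 CPM in Adam17-KD cells, against 122, 82.0 and 107 CPM in control cells (log2 fold change 0.04). The value of Rps27l turned to -0.16 without Adam17-KD replicate 1 and to -0.11 without control replicate 2. Rpl10a, the third highest, was at -0.04 on the log2 scale, turned to 0.14 without Adam17-KD replicate 1 and to 0.02 with an offset for GC content.

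Members named for a known role outside the ribosome or in disease had the following values. Rps3, also known as a partner of NF-κB p65, was at 886, 936 and 1212 CPM in Adam17-KD cells, against 1341, 1267 and 1385 CPM in control cells (log2 fold change -0.40 ± 0.16 (SE), edgeR adjusted p = 0.56), without overlap. Rps19, the gene most often hit in Diamond-Blackfan anaemia, was at 391, 546 and 601 CPM, against 702, 694 and 676 CPM in control cells (log2 fold change -0.43 ± 0.21 (SE), edgeR adjusted p = 0.68), also without overlap. Rps6, the substrate of S6 kinase, was at 348, 437 and 638 CPM in Adam17-KD cells, against 552, 717 and 659 CPM in control cells (log2 fold change -0.44 ± 0.22 (SE), edgeR adjusted p = 0.69), and Adam17-KD replicate 3 lay inside the control range. Rps27a, made as a fusion with ubiquitin, had -0.37 and Rpsa, also known as a laminin receptor, -0.34 on the log2 scale. Rpl5 and Rpl11, which bind MDM2 when ribosome assembly fails, had -0.07 and -0.20 on the log2 scale, and Rpl13a, part of the GAIT complex in human cells given IFNγ, had -0.16. None of these was called.

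**Figure D2:**
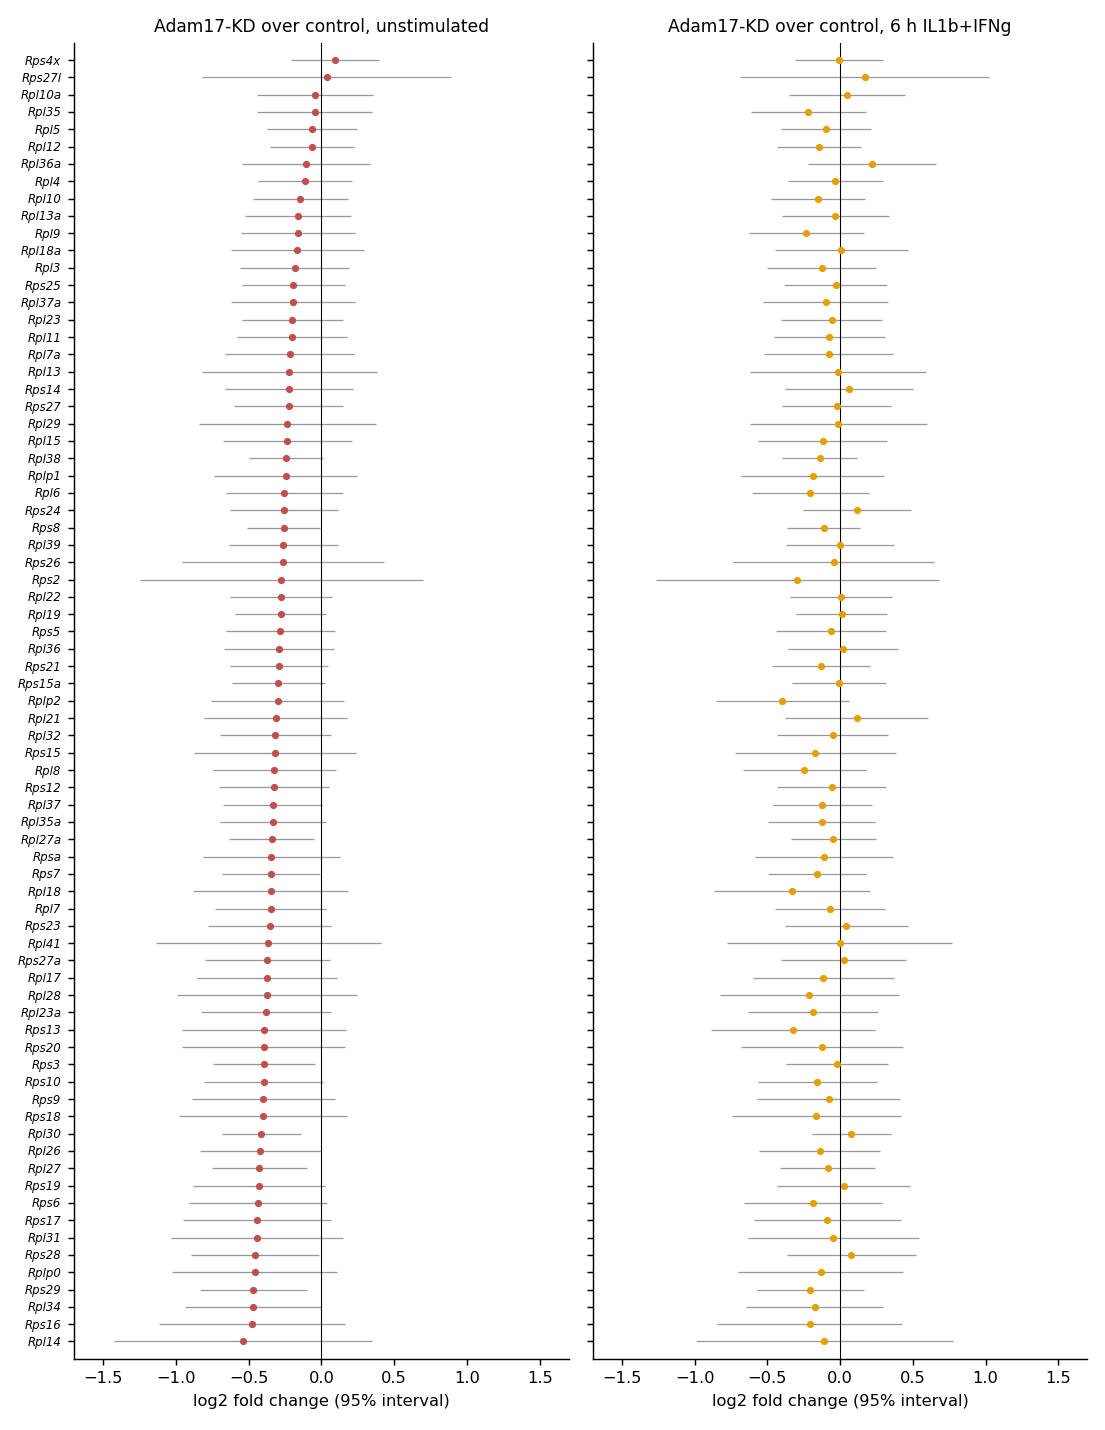
Log2 fold change of Adam17-KD over control cells for 75 of the 76 genes with its 95% interval from edgeR, without cytokines on the left and with cytokines on the right, in the order of the left panel. Most points lie below 0 without cytokines, where the median of all 76 members is -0.31, and fewer do so with cytokines, where it is -0.09. Most intervals cross 0 in the left panel, and all do in the right panel.

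The interval around each value limits what could be seen. A member's standard error had a median of 0.19 on the log2 scale in this comparison and reached 0.45 in Rps2, and the 95% interval lay within 1 log2 unit of 0 in 69 of 76 members and within 0.5 in 7 of 76. The median also depended on single libraries. Without Adam17-KD replicate 1 the median was -0.16 with 67 of 76 genes negative, without Adam17-KD replicate 3 it was -0.43, and with both stimulated libraries named above left out it was -0.31. The count of members at an unadjusted p under 0.05 was 1 without Adam17-KD replicate 1 or 2, 2 without control replicate 3, 24 without stimulated control replicate 2 and 37 without Adam17-KD replicate 3. Calls over all genes also moved, from 10 to 126 with a library left out. The share of all genes at an unadjusted p under 0.05 in these fits is not given here, so that these counts are no result about the members.

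With cytokines the same comparison asks whether edited cells differed while responding to IL1β and IFNγ. No member was called by edgeR, while 0.0341% of all genes were, 0 members had an unadjusted p under 0.05, while 4.61% of all genes did, and DESeq2 called 0 members. The median log2 fold change was -0.09 with 60 of 76 genes negative, against 0.01 and 48.6% negative over all genes. No member had groups without overlap in either direction, while 3.23% of all genes lay lower and 4.83% higher without overlap in Adam17-KD cells. Here the interval lay within 0.5 log2 units of 0 in 36 of 76 members.

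Rplp2, the partner of Rplp1 in the stalk, had the lowest value. It was at 723, 727 and 569.6 CPM in stimulated Adam17-KD cells, against 971, 712 and 977 CPM in stimulated controls (log2 fold change -0.40 ± 0.21 (SE), edgeR adjusted p = 0.999797), and the highest Adam17-KD library lay just above the lowest control. Rpl18 was at 1041, 968 and 759 CPM in Adam17-KD cells, against 1322, 753 and 1406 CPM in controls (log2 fold change -0.33 ± 0.25 (SE), edgeR adjusted p = 0.999797), and Rps13 was at -0.32 on the log2 scale. With a library left out Rpl18 ran from -0.56 (without control replicate 2) to -0.17 (without control replicate 3), and Rps13 from -0.49 (without Adam17-KD replicate 1) to -0.06 (without control replicate 1). Among the highest were Rpl36a at 0.22, Rps27l at 0.17 and Rps24 at 0.12, and all 3 turned below 0 without Adam17-KD replicate 3, Rps27l to -0.64. The median depended on single libraries. It was -0.02 without control replicate 1, with 43 genes negative and 33 positive, and -0.02 without control replicate 3, with 41 genes negative and 35 positive. Without control replicate 2 it was -0.25 with 6 members at an unadjusted p under 0.05, and without both that library and Adam17-KD replicate 3 it was -0.20 with 68 genes negative. The share of all genes at this p without control replicate 2 is not given here, so that the count of 6 is no result about the members.

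Averaged over both conditions, no member was called by edgeR, while 1.24% of all genes were, and DESeq2 called 0 members. An unadjusted p under 0.05 was reached by 7 members, all lower in Adam17-KD cells, while 10.8% of all genes reached it, 610 of them lower and 979 higher. The count of members was 1 without unstimulated Adam17-KD replicate 1, 29 with unstimulated Adam17-KD replicate 3 left out and 35 with control replicate 2 of the stimulated cells left out, and 1 to 35 over the 12 libraries left out in turn. Calls over all genes ran from 69 to 234 over the same fits. The share of all genes at an unadjusted p under 0.05 in them is not given here, so that these counts are no result about the members. The median was -0.19 with 72 of 76 genes negative, and -0.26 with both stimulated libraries named above left out. Rps29 had log2 fold change -0.34 ± 0.12 (SE), edgeR adjusted p = 0.29, and Rps13 and Rplp2 were among the lowest with -0.36 and -0.35 on the log2 scale. Rps27l, Rpl36a and Rps4x had the highest values with 0.10, 0.06 and 0.04.

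The response to the cytokines was then followed in each kind of cells. In control cells no member was called by edgeR, while 6.81% of all genes were. An unadjusted p under 0.05 was reached by 2 members, while 15.2% of all genes reached it, and DESeq2 called 1 member, Rpl12 (adjusted p = 0.047). The median log2 fold change was -0.0014 with 38 genes above and 38 below 0, against -0.03 over all genes. In 4 members the stimulated libraries lay above all unstimulated ones, while 11% of all genes did so, and in 1 member they lay below, while 8.32% of all genes did.

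Rpl12, part of the base of the stalk, was at 1409, 1408 and 1253 CPM in stimulated control cells, against 1135, 885 and 1093 CPM in unstimulated control cells (log2 fold change 0.39 ± 0.13 (SE), edgeR adjusted p = 0.13). Rpl35 was at 332, 317 and 389 CPM after cytokines, against 262, 222 and 309.7 CPM without (log2 fold change 0.39 ± 0.18 (SE), edgeR adjusted p = 0.35). In both genes the stimulated and unstimulated libraries did not overlap. Rps27l was at 128, 229 and 133 CPM in stimulated control cells, against 122, 82.0 and 107 CPM in unstimulated ones (log2 fold change 0.65 ± 0.40 (SE), edgeR adjusted p = 0.53), also without overlap, and stimulated replicate 2 stood far above the other libraries. It was called only when no filter on low counts was set (adjusted p = 0.0014 by edgeR). The share of all genes called in that fit is not given here, and 806 to 1400 genes were called over all settings. Rps4x was the fourth member whose stimulated libraries were all higher, at 1445, 1293 and 1517 CPM, against 1249, 1026 and 1236 CPM without cytokines (log2 fold change 0.28 ± 0.14 (SE), edgeR adjusted p = 0.39). Rpl30 was at 254, 247 and 265 CPM in stimulated control cells, against 335, 309.8 and 323 CPM in unstimulated control cells (log2 fold change -0.34 ± 0.13 (SE), edgeR adjusted p = 0.18), lower in each stimulated library. Rpl41, Rps28 and Rpl31 had the lowest values with -0.42, -0.36 and -0.36 on the log2 scale. Without stimulated control replicate 2 they were at -0.08, -0.17 and -0.12. Without control IL1b+IFNg replicate 2 the median of the members was 0.14 with 57 genes above 0 and 6 members at an unadjusted p under 0.05, and without replicate 1 of the same group it was -0.09. With Adam17-KD IL1b+IFNg replicate 3 left out as well as control replicate 2 it was 0.14. The share of all genes at this p without control replicate 2 is not given here, so that the count of 6 is no result about the members.

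In Adam17-KD cells no member was called by edgeR either, while 7.9% of all genes were. An unadjusted p under 0.05 was reached by 7 members, all higher after cytokines, while 16.9% of all genes reached it, 1601 of them higher and 880 lower. DESeq2 called 0 members. The median was 0.20, a level 1.15 times that of unstimulated Adam17-KD cells, with 72 of 76 genes above 0, against 0.00 and 50.3% above 0 over all genes. In 5 members, Rps21, Rps14, Rps7, Rpl36 and Rpl12, all stimulated libraries lay above the unstimulated ones, while 14.1% of all genes did so, and in 0 members they lay below, while 10.2% of all genes did. The counts of non-overlapping members were thus below the share of all genes in both kinds of cells.

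Rps21 was at 569, 490.4 and 757 CPM in stimulated Adam17-KD cells, against 447, 413 and 449 CPM in unstimulated Adam17-KD cells (log2 fold change 0.47 ± 0.16 (SE), edgeR adjusted p = 0.098). Its value passed the threshold only when stimulated Adam17-KD replicate 2 was left out (log2 fold change 0.60, adjusted p = 0.038 by edgeR). Rps14, a small subunit protein whose loss underlies the anaemia of the human 5q deletion syndrome, was at 1923, 2039 and 3248 CPM after cytokines, against 1353, 1659 and 1705 CPM without (log2 fold change 0.61 ± 0.20 (SE), edgeR adjusted p = 0.1), and replicate 3 was the highest. Rps27l was at 118, 90.7 and 341 CPM in stimulated Adam17-KD cells, against 136, 96.1 and 87.3 CPM in unstimulated ones (log2 fold change 0.78 ± 0.40 (SE), edgeR adjusted p = 0.36), and had a log2 fold change of -0.02 without stimulated replicate 3. Without a filter on low counts Rps14, Rps27l and Rpl14 were called (adjusted p = 0.0044, 4.1e-05 and 0.012 by edgeR). The share of all genes called in that fit and in the other settings named here is not given. Over all settings 853 to 1724 genes were called in this comparison. Rpl14 was at 878, 799 and 353 CPM after cytokines, against 531, 364 and 489 CPM without (log2 fold change 0.55 ± 0.41 (SE), edgeR adjusted p = 0.59). It had a log2 fold change of 0.86 with an edgeR adjusted p = 0.011 when both stimulated libraries named above were left out. The lowest members were Rpl37a, Rpl41 and Rps6 with -0.08, -0.05 and -0.01 on the log2 scale, and each of them turned above 0 without stimulated Adam17-KD replicate 3. The median of the members was 0.07 without unstimulated Adam17-KD replicate 1 and 0.32 without unstimulated Adam17-KD replicate 3, and 0.22 with both stimulated libraries left out. The count of members at an unadjusted p under 0.05 was 0 without stimulated Adam17-KD replicate 3, 1 and 3 without unstimulated Adam17-KD replicates 1 and 2, 14 without stimulated Adam17-KD replicate 2 and 15 without unstimulated Adam17-KD replicate 3. With a library left out, 853 to 1332 of all genes were called. The share of all genes at an unadjusted p under 0.05 in these fits is not given here, so that these counts are no result about the members.

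Both cytokine responses and both knockdown effects share their groups, so that the difference between them was tested by itself. No member and 0% of all genes were called by edgeR, and DESeq2 called 0 members. An unadjusted p under 0.05 was reached by 1 member, Rpl30 (log2 fold change 0.49 ± 0.18 (SE), edgeR adjusted p = 0.999989), while 1.51% of all genes reached it. The median difference was 0.22 with 68 of 76 genes above 0, against 0.02 and 53.1% above 0 over all genes, and was 0.04 without unstimulated Adam17-KD replicate 1, 0.09 without stimulated control replicate 2 and 0.11 with both stimulated libraries left out. Rps28, Rpl30 and Rps19 had the highest differences with 0.53, 0.49 and 0.46 on the log2 scale, and Rpl35, Rps4x and Rplp2 the lowest with -0.17, -0.10 and -0.10. The standard error of such a difference had a median of 0.27.

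Replicates of a group differed in the level of the members as a whole. The median SD of log2 CPM within groups was 0.26 for the members, against 0.19 for tested genes with a mean of at least 10 CPM. The median member stood 0.50 log2 units below its 12-library mean in unstimulated Adam17-KD replicate 1, where 75 of 76 members were below that mean, 0.23 below in replicate 2 and 0.05 above in replicate 3. In stimulated control cells it stood 0.24 above in replicate 1, 0.17 below in replicate 2 and 0.22 above in replicate 3. Most members moved together. The median correlation between pairs of members over the 12 libraries was 0.58, and 2550 of 2850 pairs were above 0, as a description of points that share libraries and scaling.

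**Figure D3:**
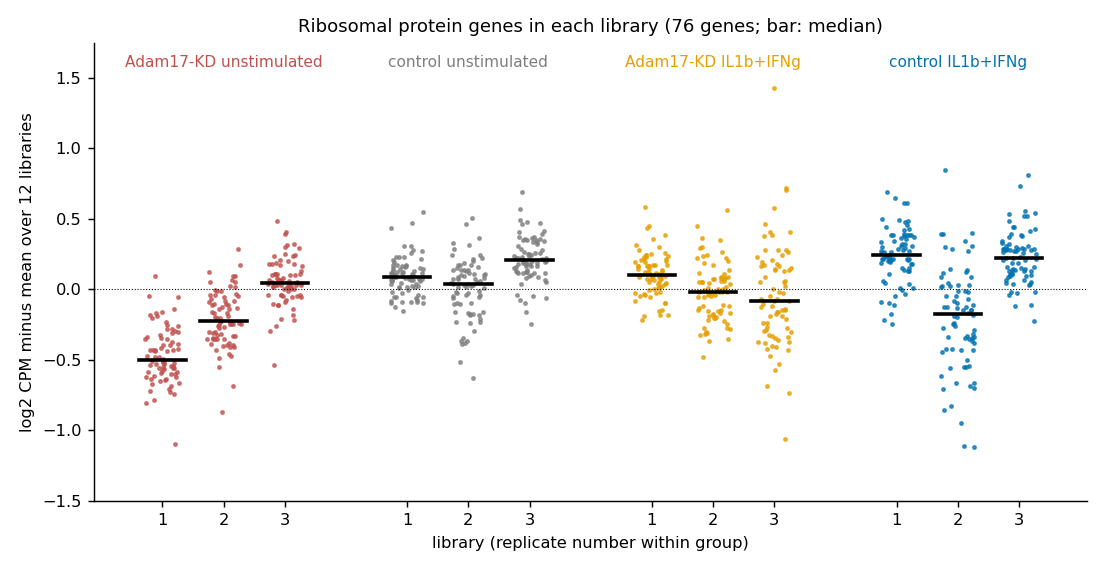
Log2 CPM of each of the 76 genes minus its own mean over the 12 libraries, by library, where each point is a gene and the bar is the median. The median lies at -0.50 in unstimulated Adam17-KD replicate 1 and at 0.05 in replicate 3 of the same group, and the points of stimulated Adam17-KD replicate 3 and stimulated control replicate 2 spread more widely than in the other libraries.

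Not all members took part in this common movement. Rps9 and Rpsa, both of the small subunit, had the highest median correlation with the other members (0.806 and 0.790), while Rps27l had -0.21, Rpl23 -0.02, Rpl21 0.02 and Rpl36a 0.08. The ratio of Rps27l to Rps27 was 2.58 in stimulated Adam17-KD replicate 3, 2.58 in stimulated control replicate 2 and 1.6 in unstimulated Adam17-KD replicate 1, and 0.670 to 1.06 in the other 9 libraries. In the same 3 libraries Rps2 was at 3263, 3768 and 3190.0 CPM, below its 6384 to 11975 CPM in the other 9. The ratio of Rps14 to Rps2 was 0.995, 0.689 and 0.424 in these 3 libraries and 0.170 to 0.291 in the other 9. Rps25, a protein needed for initiation at some viral internal entry sites, was at 443, 520.0 and 665 CPM in stimulated Adam17-KD cells and 505, 606 and 551 CPM in stimulated controls, highest in the same replicates 3 and 2 within these groups, whereas Rps16 was lowest in them. The 3 libraries come from 3 of the 4 groups. They also had the lowest total counts. These were 13201129 in stimulated Adam17-KD replicate 3, 13156871 in stimulated control replicate 2 and 17031942 in unstimulated Adam17-KD replicate 1. Unstimulated Adam17-KD replicate 2 came next with 17125725 counts. The part of sequencing depth in these values was not tested.

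**Figure D4:**
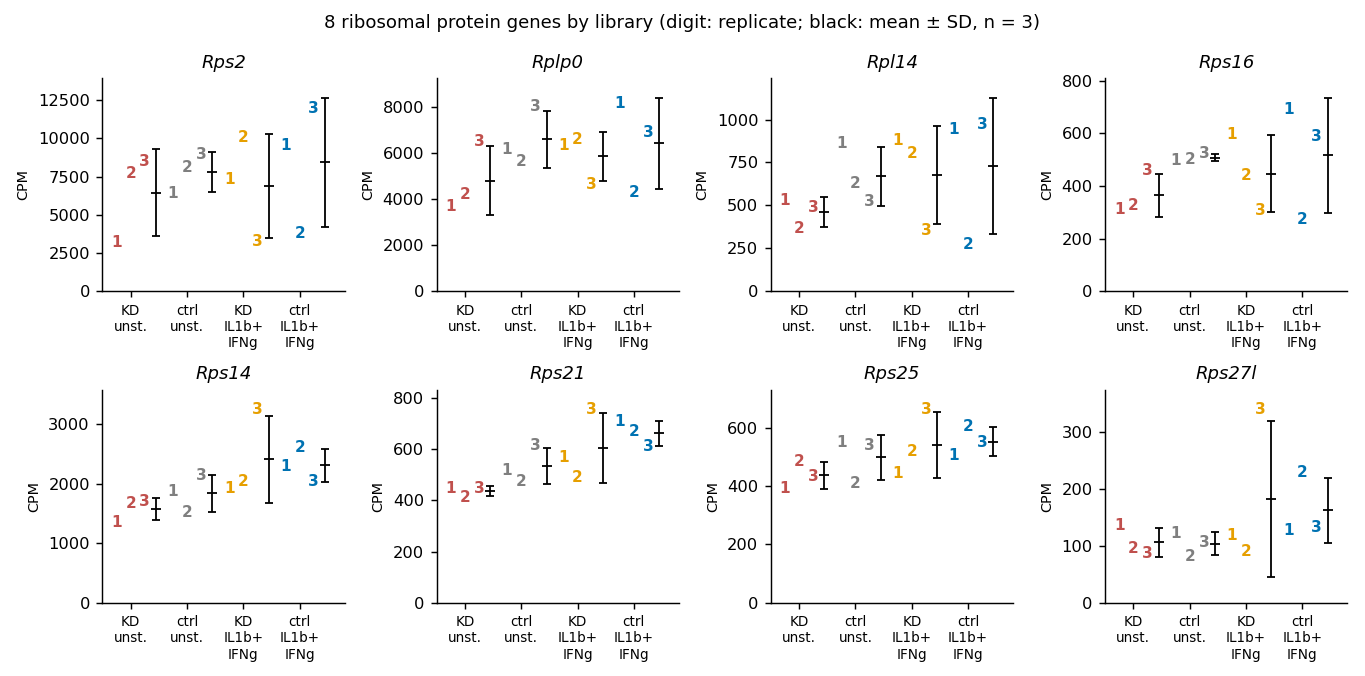
CPM of 8 members by group, where digits are replicate numbers and black marks are the mean ± SD (n = 3). Replicate 3 of stimulated Adam17-KD cells and replicate 2 of stimulated control cells are lowest in their groups for Rps2, Rplp0, Rpl14 and Rps16 and highest in their groups for Rps14, Rps25 and Rps27l, and Rps21 is highest in replicate 3 of stimulated Adam17-KD cells.

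Other measures moved with the libraries as well. Malat1, a long RNA kept in the nucleus, was at 1233, 1185 and 566 CPM in unstimulated Adam17-KD cells and 609, 1279 and 432 CPM in unstimulated controls, and at 474, 932 and 471 CPM in stimulated Adam17-KD cells and 289, 1499.9 and 261 CPM in stimulated controls. Members and Malat1 ran in opposite directions across libraries. Over the 12 libraries the summed CPM of the members had a Pearson r of -0.77 and a Spearman rho of -0.80 with Malat1, r was -0.82 without the 2 libraries farthest from the median of Malat1, and -0.79 for deviations from the group means. These are descriptions of values that share the scaling of a library. Members are short, with a median transcript of 882 bases against 2539 bases over the 14023 tested genes with an annotated transcript. Over these other genes the correlation between log2 transcript length and deviation from the 12-library mean was 0.24 and 0.27 in unstimulated Adam17-KD replicates 1 and 2, -0.21 in replicate 3, and -0.23, 0.05 and -0.22 in the 3 unstimulated controls. In replicates 1 to 3 of stimulated cells it was -0.12, 0.07 and 0.05 in Adam17-KD cells and -0.18, 0.27 and -0.09 in controls. The 2483 other tested genes with a transcript under 1000 bases, a group formed after seeing the data, had a median log2 fold change of -0.24 in Adam17-KD over control cells without cytokines with 79% below 0, next to -0.31 for the members. With cytokines their median was -0.00, in the cytokine response of control cells -0.18, in that of Adam17-KD cells 0.05, and in the difference between the responses 0.23. The part of transcript length or of Malat1 in the members' values was not tested.

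Paralogs outside the name pattern were set against their members. Rpl22l1 was at 0.128 to 0.213 times Rpl22 in CPM per library, with the highest ratio in stimulated control replicate 2. Rpl7l1, a nucleolar assembly factor related to Rpl7, was at 0.142 to 0.249 times Rpl7. Rpl36al was at 1.19 to 2.27 times Rpl36a. Ratios in CPM are not corrected for length. Cytosolic ribosomal proteins whose symbols do not follow the pattern gave like values. Gnb2l1 (Rack1), the scaffold on the small subunit, was at 2469.6, 2901 and 3920.1 CPM in unstimulated Adam17-KD cells, against 3583, 3787 and 4518 CPM in unstimulated controls (log2 fold change -0.36 ± 0.18 (SE), edgeR adjusted p = 0.7), and Rps3a1 and Fau had -0.39 and -0.23 on the log2 scale. None of them was called in any of the 6 comparisons, in which 0% to 7.9% of all genes were called.

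Genes that make or use the ribosome were set beside the members. Of all genes 0% to 7.9% were called, by comparison. The share was 6.81% in the cytokine response of control cells and 7.9% in that of Adam17-KD cells. Of 9 translation elongation genes 0 were called in any comparison, and their medians were -0.27 for Adam17-KD over control cells without cytokines, -0.14 with cytokines, 0.06 for the cytokine response of control cells and 0.18 for that of Adam17-KD cells. Eef1a1, which brings aminoacyl-tRNA to the ribosome, was at 6134, 7016 and 7262 CPM in unstimulated Adam17-KD cells, against 7375, 7548 and 7981 CPM in unstimulated controls (log2 fold change -0.17 ± 0.14 (SE), edgeR adjusted p = 0.85). The 9 further TOP mRNAs, among them Npm1, Naca and Btf3, had medians of -0.22, -0.04, -0.03 and 0.20 in the same order, with 0 called. The 39 initiation factors had medians of -0.11, -0.07, 0.09 and 0.12. Among them Eif6, which keeps the 60S subunit from joining too early, rose in the cytokine response of Adam17-KD cells. It was at 647, 503 and 572 CPM after cytokines, against 352, 372 and 451 CPM without (log2 fold change 0.55 ± 0.15 (SE), edgeR adjusted p = 0.033).

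The 50 ribosome biogenesis genes had medians of -0.10, -0.07, 0.04 and 0.11, and 1 was called in each cytokine response and 0 in the knockdown comparisons. Of all genes 6.81% were called in the cytokine response of control cells and 7.9% in that of Adam17-KD cells. Noc4l, a factor of small subunit assembly, rose in both kinds of cells. It was at 174, 169 and 162 CPM in stimulated and 60.6, 54.7 and 68.3 CPM in unstimulated Adam17-KD cells (log2 fold change 1.46 ± 0.15 (SE), edgeR adjusted p = 1.54e-05), and at 198, 132 and 173 CPM in stimulated and 76.2, 63.0 and 80.7 CPM in unstimulated control cells (log2 fold change 1.19 ± 0.15 (SE), edgeR adjusted p = 9.38e-05). The 14 genes of RNA polymerase I transcription had medians of -0.08, -0.06, -0.03 and 0.07 in the same order. Among them Ubtf, the factor that opens the rDNA repeats, fell in the cytokine response of Adam17-KD cells, with 192, 188 and 176 CPM after cytokines, against 252, 302 and 245 CPM without (log2 fold change -0.52 ± 0.12 (SE), edgeR adjusted p = 0.011). The 18 mTORC1 and MYC genes had medians of -0.04, -0.07, -0.08 and -0.10 in the same order, with 0 called. Without cytokines 8 of them were positive and 10 negative. Among them Myc, a driver of ribosomal protein transcription, was at 212, 206 and 225 CPM in unstimulated Adam17-KD cells, against 317, 289.9 and 279 CPM in unstimulated controls (log2 fold change -0.46 ± 0.12 (SE), edgeR adjusted p = 0.17). Its groups did not overlap, while 7.53% of all genes lay lower without overlap. The part of Myc in the members' values was not tested. Averaged over both conditions Myc had log2 fold change -0.34 ± 0.08 (SE), edgeR adjusted p = 0.083.

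The proteins of the mitochondrial ribosome, which are encoded in the nucleus by other genes, had medians of -0.21 for Adam17-KD over control cells without cytokines, -0.01 with cytokines, 0.02 for the cytokine response of control cells and 0.17 for that of Adam17-KD cells over 77 tested genes. Mrpl13, Mrpl27 and Mrps34 were the 3 called in the last of these, all higher (log2 fold changes 0.59, 0.59 and 0.51), while 7.9% of all genes were called. The 73 nuclear-encoded subunits of oxidative phosphorylation had medians of -0.22, 0.00, 0.01 and 0.21 in the same order with 0 called. The 10 mitochondrially encoded genes had medians of 0.15, 0.19, -0.22 and -0.08 in the same order with 0 called. In the knockdown comparison without cytokines and in the cytokine response of Adam17-KD cells, the nuclear-encoded mitochondrial lists had medians of the members' sign. The mitochondrially encoded genes had medians of the opposite sign there. No test of the members against any of these lists was made.

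**Figure D5:**
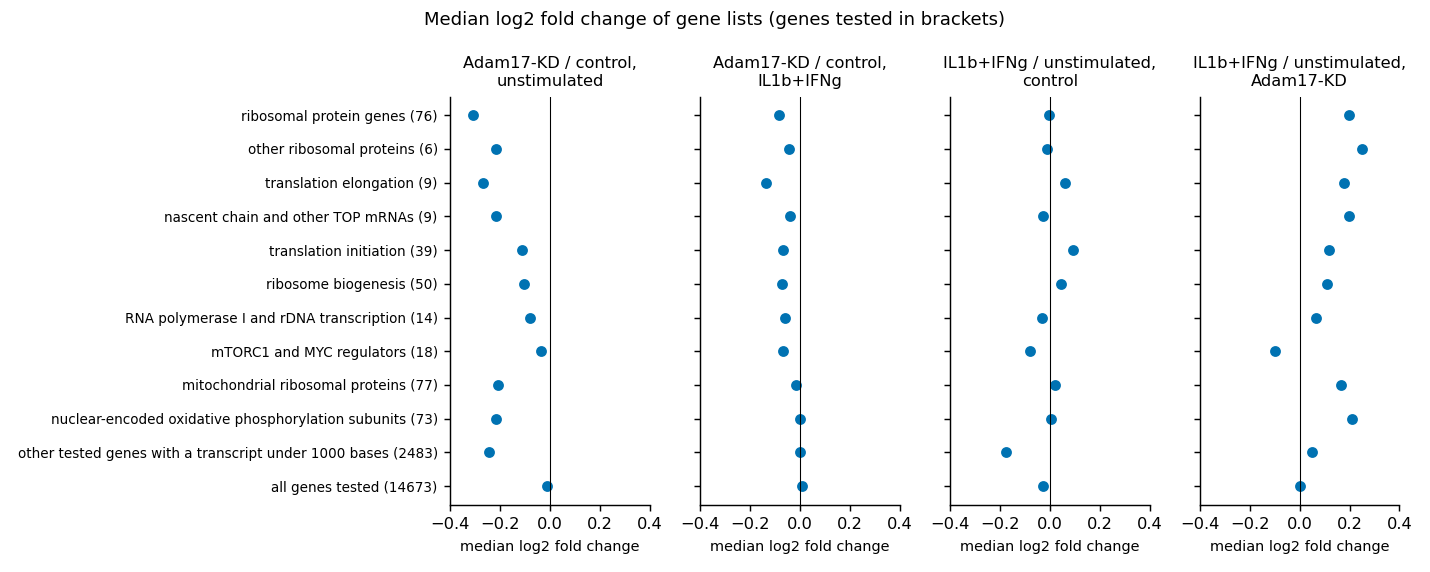
Median log2 fold change of the 76 members, of 10 other groups of genes and of all 14673 tested genes in 4 comparisons, with the number of genes tested in brackets. Without cytokines the members stand at -0.31, the genes with transcripts under 1000 bases at -0.24 and all genes at -0.01, and in the cytokine response of Adam17-KD cells the members stand at 0.20.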

How the data were processed

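Poly(A)+ RNA of 12 libraries (4 groups of 3 replicates) had been sequenced with an Ion Total RNA-Seq kit. The authors deposited raw read counts per gene, with mm10 named as the build in the submitters' processing notes. The aligner, counter, annotation and handling of reads that map to several places are not given in the sources used here. Deposited tables of the authors' own comparisons, which hold fold changes and p-values, were not used. Columns named the groups and replicates, and 2 gene names turned into dates (0.00808% of counts) were left out.

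Totals were 13156871 to 25443307 counts. With edgeR 4.0.16 (R 4.3.3), low genes were removed by filterByExpr, and counts were scaled by TMM and fitted with 1 mean per group (8 residual degrees of freedom). Quasi-likelihood F-tests were adjusted by Benjamini-Hochberg over all 14673 genes tested, and genes were called at an adjusted p under 0.05. DESeq2 1.42.0 served as an alternative, and the scripts were tested on simulated data. Unadjusted p-values, medians and overlaps describe the members and are no tests of the group. Log2 CPM used a prior count of 2. Lengths and positions come from GENCODE M21 and start sequences from RefSeq (GRCm38.p6), both matched by symbol.

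The replicate numbers were checked for pairing by the correlation of deviations from the group means between same-numbered libraries. These were 0.22, 0.28 and 0.46 between unstimulated Adam17-KD and control cells and 0.13, 0.44 and 0.49 between stimulated and unstimulated control cells, over 0.1 in every pair. In the other pairs of groups at least 1 was negative.

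The members and all gene lists were chosen with earlier results of these data known. Named with values were the 3 highest and 3 lowest members per comparison, the 6 highest in mean CPM, members with known roles, paralogs, members next to the 10 CPM limit, and genes of the other lists with small p. Rpl30, Rps29, Rps21, Rps25, Rps9, Rpl23, Rpl21 and the printed start sequences were chosen after their values were seen, as were the use of coding length, the GC content offset, the list of short transcripts and the setting without 2 stimulated libraries. Of the genes this rule names, 1 member and 1 other ribosomal protein gene entered all fits and counts but are not reported here, and the member was left out of the plots that label genes.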

Additional observations from a re-analysis of the deposited data

How the results depend on the processing

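In every alternative the count of members called stayed 0 for both knockdown effects and for the difference between the cytokine responses. Without a filter on low counts 1 member was called for the averaged knockdown effect, 1 in the cytokine response of control cells and 3 in that of Adam17-KD cells. DESeq2 called 1 in control cells. In Adam17-KD cells 2 were called with a GC content offset and replicate block, 1 with both stimulated libraries left out, and 0 to 1 with each library left out in turn. The cause was not tested. For the knockdown effects without cytokines, with cytokines and on average, 38, 3 and 33 members had an unadjusted p under 0.05 without the filter and 17, 0 and 13 with the replicate block, against 10, 0 and 7 in the report. Calls over all genes also moved between the settings, as given below. The share of all genes at an unadjusted p under 0.05 in these settings is not given here. These counts are therefore no result about the members.

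The replicate block left 0 members called in each comparison, with medians of -0.32, -0.07, -0.19, -0.01, 0.21 and 0.24 in the order of the report. Over all genes it gave 130, 11 and 302 calls for the 3 knockdown effects, against 69, 5 and 182 without it, while DESeq2 gave 230, 74 and 443 and no filter on low counts 223, 98 and 406. Over all alternatives these counts ran from 10 to 230, 0 to 98 and 69 to 467, those of the cytokine responses from 806 to 1400 in control cells and from 853 to 1724 in Adam17-KD cells, and that of the difference from 0 to 18.

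Single members near 0 changed sign. Without cytokines Rpl10a was at 0.0045 with the GC content offset and replicate block, at 0.024 with the GC content offset, and at -0.21 to 0.14 with a library left out, and Rps27l at -0.16 to 0.18. With cytokines, libraries left out gave -0.015 to 0.26 for Rps24, -0.64 to 0.49 for Rps27l and -0.0064 to 0.33 for Rpl36a. On average over both conditions they gave -0.000313 to 0.085 for Rps4x, -0.057 to 0.13 for Rpl36a and -0.30 to 0.27 for Rps27l. In the cytokine response of Adam17-KD cells they gave -0.25 to 0.10 for Rpl37a, -0.33 to 0.24 for Rpl41, -0.21 to 0.24 for Rps6 and -0.024 to 1.11 for Rps27l. For the difference between the responses Rplp2 ranged over -0.33 to 0.16. With both stimulated libraries left out, Rps27l was at -0.32 with cytokines and -0.14 on average, Rps4x at -0.000334 and Rpl36a at -0.043 on average, and Rpl37a at 0.10, Rpl41 at 0.19, Rps6 at 0.12 and Rps27l at -0.023 in the cytokine response of Adam17-KD cells. Rps6 was at 0.0026 there with the GC content offset and replicate block and at 0.024 with the replicate block.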
